A study of Aedes aegypti with 33 samples.

Results

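The genes followed here belong to the ecdysone response of the mosquito Aedes aegypti: CYP18A1 (AAEL004870), USP (AAEL000395), E75 (AAEL007397) and HR3 (AAEL009588). They are 4 of the 19712 genes counted, and each had counts in all 33 libraries and passed the filter on low counts in all 4 experiments. The genes were chosen by identifier, as members of one hormone pathway, with their changes in these same libraries already in view. The tests given here therefore describe these libraries and are not independent support for any direction. CYP18A1 was annotated as a cytochrome P450 on chromosome 1 of the AaegL5 assembly, from 289386124 to 289399452 on the plus strand, a span of 13329 bp that matched the RefSeq gene LOC5565588. The names E75, HR3 and USP are those under which the identifiers were listed, and positions of these genes are not given here.

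RNA was sequenced from Aag2 and A20 cells, continuous cell lines of Ae. aegypti, to find transcripts that respond to a lack or an excess of heme, the iron-carrying ring that mosquitoes take up with blood. At 72 h, Aag2 cells in Schneider's Drosophila medium and, in a separate experiment, Aag2 cells in Leibovitz's L-15 medium were given 10 µM heme without fetal bovine serum (FBS), no heme and no FBS (0 µM heme), or regular growth media with 10% FBS. A20 cells were likewise given 10 µM heme or 0 µM heme in serum-free SF900 II, or L-15 medium with FBS, so that in these cells the medium changed together with the serum. At 48 h, Aag2 cells in Schneider's medium kept their FBS and were given 20 µM heme or none. Each treatment had 3 biological replicates, numbered 1 to 3. The libraries of the 48-h experiment were made with another kit than all others, so that time, dose, serum and kit cannot be told apart between that experiment and the rest. Serum carries heme and many other components, and in every comparison with FBS at 72 h the effects of serum and of heme cannot be told apart. Each line was taken as labelled, since no defining marker of Aag2 or A20 cells was among the genes examined. In bulk RNA, fewer cells expressing a gene and less RNA of it per cell cannot be told apart.

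In insects, the steroid hormone 20-hydroxyecdysone acts through a receptor made of the ecdysone receptor (EcR) and Ultraspiracle (USP), a nuclear receptor that binds DNA together with EcR. The hormone-bound receptor switches on a cascade of further nuclear receptors, among them E75 and HR3, and in the mosquito this cascade follows a blood meal and leads to yolk production in the fat body. In Drosophila, the E75 protein holds a heme group and represses the activity of HR3, and HR3 is itself a nuclear receptor that activates later genes of the cascade. CYP18A1, known best from Drosophila, hydroxylates the hormone and so removes it, and like all cytochromes P450 it carries heme. The counts measure RNA only, and neither hormone levels nor protein activity were measured.

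The libraries held 22860764 to 38002762 counts, and levels are in CPM, a count divided by its library size on a common scale, with TMM factors computed within each experiment. Genes were tested with edgeR's quasi-likelihood F test over 12007 to 13990 genes per experiment, and a gene is said to have risen or fallen only where its Benjamini-Hochberg adjusted p (FDR) was below 0.0001, the threshold of the study. For 1 gene, groups of 3 and 3 libraries allow an exact permutation p of 0.1 at the lowest. In A20 cells, replicate 1 of 10 µM heme stood apart: it was 3.32 and 3.41 away from its own replicates, as a root mean square log2 difference over the 500 genes that differed most, against 2.5 between those replicates and 3.54 to the nearest library of 0 µM heme. Results of the 4 genes in A20 cells are therefore given with and without it. Replicate 1 of the other A20 treatments was 1.92 to 2.03 away from its own replicates. Between those replicates the distance was 1.9 with FBS and 1.68 in 0 µM heme.

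Heme was set against 0 µM heme at 72 h and against FBS alone at 48 h. Of the 4 genes, HR3 alone had the same direction in these comparisons of all 4 experiments. The share of all genes with a single direction in them was not computed. In these comparisons HR3 was 2.99 to 3.96 times as high with heme. A higher log2 fold change was held by 4.83% of genes tested in Schneider's medium at 72 h and 8.48% in L-15 medium. The share was 4.36% in A20 cells and 0.741% at 48 h. HR3 passed the threshold in both Aag2 experiments at 72 h, and missed it in A20 cells (FDR 0.00191) and at 48 h (FDR 0.000208). Against FBS at 72 h, HR3 in 10 µM heme was 2.25 times as high in Schneider's medium and 2.06 times in L-15 medium. In A20 cells it was 0.817 times as high as with FBS. E75 rose with heme in Schneider's medium at 72 h and fell with heme in L-15 medium. CYP18A1 fell with 20 µM heme at 48 h and fell against FBS in both Aag2 experiments at 72 h, with 10 µM heme in Schneider's medium and with 0 µM heme in L-15 medium. USP rose in Aag2 cells in L-15 medium without serum, whether or not heme was added, and did not pass the threshold elsewhere. Over the 10 comparisons within experiments, HR3 rose in 4, E75 rose in 3 and fell in 1, CYP18A1 fell in 3 and USP rose in 2.

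**Figure D1:**
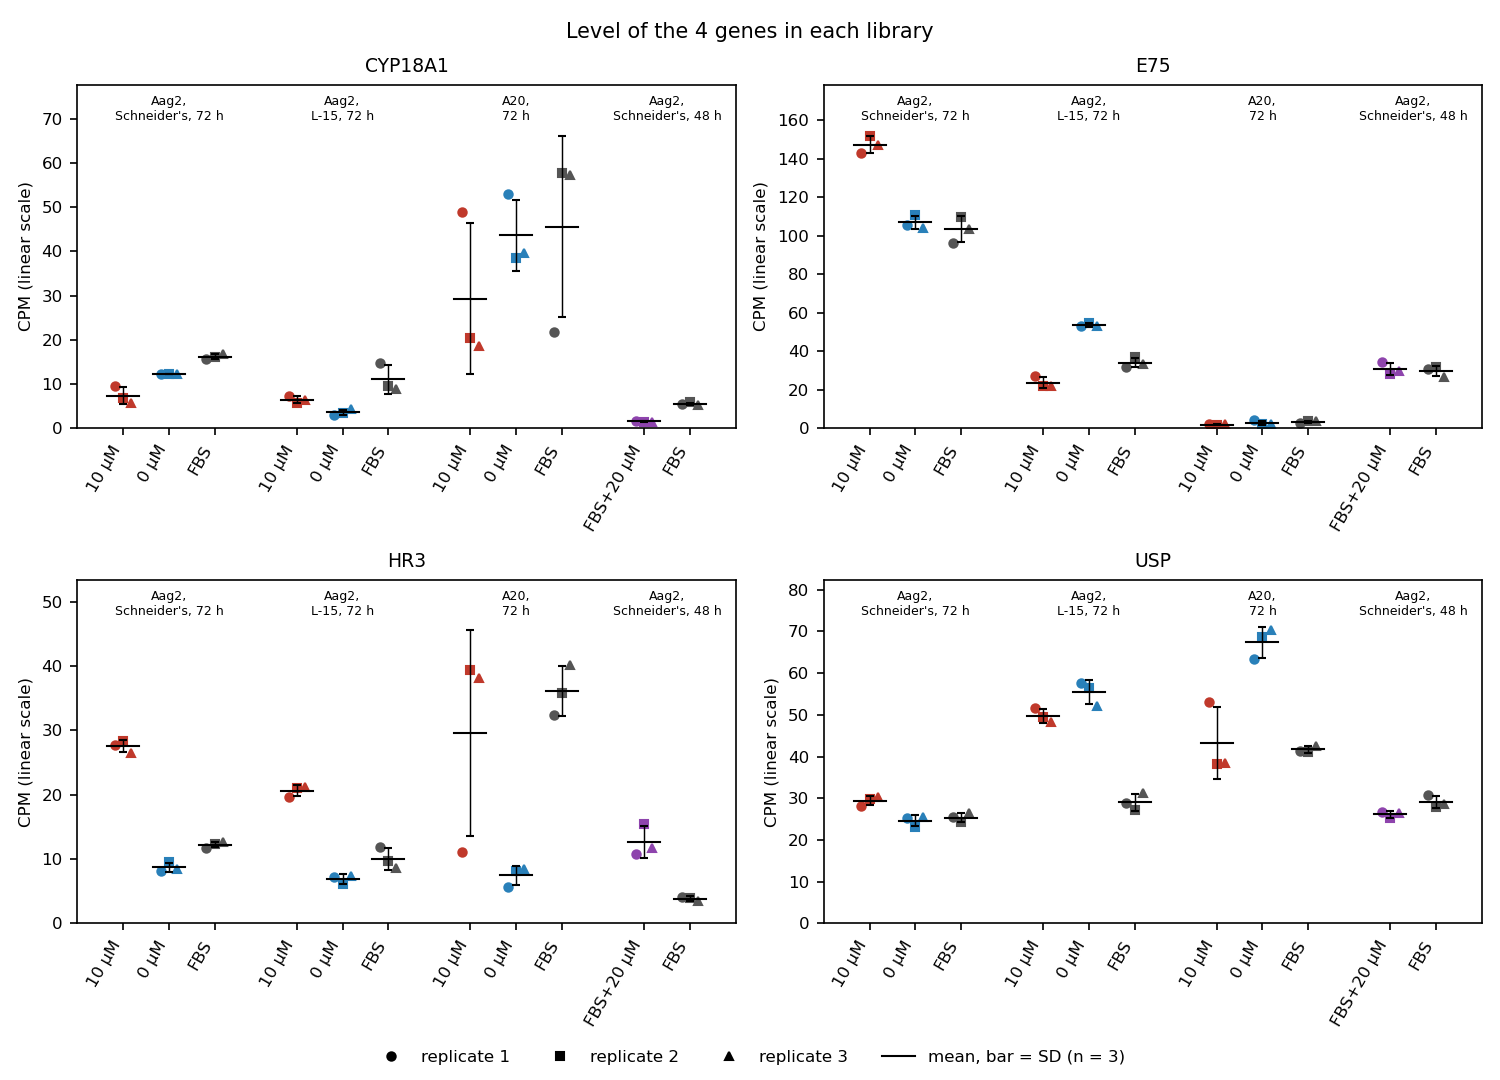
Level of CYP18A1, E75, HR3 and USP in each of the 33 libraries, in CPM on a linear axis that starts at 0, with treatments grouped by experiment. Points are libraries, horizontal lines are means and bars are the SD of 3 replicates. HR3 is higher with heme than in 0 µM heme in every experiment that has both, and replicate 1 of 10 µM heme in A20 cells stands at 11.12 CPM, apart from 39.45 and 38.15 CPM.

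CYP18A1, which inactivates the hormone, had 9.45, 6.90 and 5.70 CPM in 10 µM heme in Aag2 cells in Schneider's medium, against 12.23, 12.30 and 12.34 CPM in 0 µM heme and 15.72, 15.99 and 16.75 CPM with FBS. The 3 treatments did not overlap, and the libraries with heme were the lowest. The gene fell to 7.35 ± 1.91 CPM in 10 µM heme, against 16.2 ± 0.534 CPM with FBS (SD, n = 3 each). The log2 fold change was -1.13 (SE 0.15, FDR 8.15e-05), and 2.04% of the 13171 genes tested had a lower one. Between 10 µM and 0 µM heme the log2 fold change was -0.74 (SE 0.15, FDR 0.00156), and between 0 µM heme and FBS it was -0.40 (SE 0.14, FDR 0.0743), neither past the threshold.

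In Aag2 cells in L-15 medium, CYP18A1 had 7.23, 5.60 and 6.34 CPM in 10 µM heme, against 3.06, 3.47 and 4.22 CPM in 0 µM heme and 14.84, 9.57 and 8.87 CPM with FBS. Here the libraries of 0 µM heme were the lowest, and the treatments again did not overlap. In 0 µM heme against FBS, 1.92% of the 13990 genes tested had a lower log2 fold change than CYP18A1. The fall of CYP18A1 there was -1.63 on the log2 scale (SE 0.21, FDR 4.15e-05). That call was lost without any library of 0 µM heme and without replicate 3 of 10 µM heme, with log2 fold changes of -1.76 to -1.52 and an FDR of at most 0.000358. The log2 fold changes of 10 µM heme were 0.84 over 0 µM heme (SE 0.21, FDR 0.00528) and -0.79 over FBS (SE 0.2, FDR 0.00479). These values rest on 107 to 310 counts per library.

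In A20 cells CYP18A1 had 48.99, 20.30 and 18.64 CPM in 10 µM heme, against 52.93, 38.42 and 39.71 CPM in 0 µM heme and 21.85, 57.69 and 57.28 CPM with FBS. The treatments overlapped in all 3 comparisons, and in each treatment replicate 1 stood apart from the other two. The log2 fold change of 10 µM over 0 µM heme was -0.57 (SE 0.43, FDR 0.265), and -1.16 (FDR 0.0208) without replicate 1 of 10 µM heme. Over FBS it was -0.63 (SE 0.43, FDR 0.235), and -1.23 (FDR 0.0182) without that library. For 0 µM heme over FBS it was -0.06 (SE 0.43, FDR 0.931), and -0.07 (FDR 0.882) without it.

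At 48 h CYP18A1 had 1.703, 1.414 and 1.459 CPM with 20 µM heme added to FBS, against 5.44, 5.80 and 5.26 CPM with FBS alone. It fell by 1.84 on the log2 scale (SE 0.14, FDR 9.61e-05), 3.59-fold, and only 0.125% of the 12007 genes tested had a lower log2 fold change. The call lies close to the threshold: without any 1 of the 6 libraries the FDR was 0.000441 to 0.000979, while the log2 fold change stayed between -1.93 and -1.79. Over all 6 libraries, both the exact test in edgeR and DESeq2 called the gene as well. The study's supplement also reports its reduced expression with heme in this experiment. The libraries with heme held 37 to 49 counts of the gene. In Schneider's medium at 72 h the call against FBS was likewise lost without 8 of the 9 libraries in turn, the exception being replicate 1 of 10 µM heme, with FDRs up to 0.000702 and log2 fold changes of -1.16 to -0.98.

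USP, the partner of EcR in the hormone receptor, had 28.15, 29.82 and 30.40 CPM in 10 µM heme in Aag2 cells in Schneider's medium, against 25.29, 23.08 and 25.50 CPM in 0 µM heme and 25.39, 24.22 and 26.43 CPM with FBS. The libraries with heme were above all others, by a log2 fold change of 0.26 over 0 µM heme (SE 0.062, FDR 0.00492) and 0.22 over FBS (SE 0.062, FDR 0.0148), neither past the threshold. In L-15 medium the pattern was another one: USP had 51.60, 49.45 and 48.22 CPM in 10 µM heme, against 57.61, 56.48 and 52.16 CPM in 0 µM heme and 28.86, 27.09 and 31.20 CPM with FBS. Both serum-free treatments were well above FBS. USP rose 1.71-fold in 10 µM heme over FBS (log2 fold change 0.78, SE 0.065, FDR 7.64e-07) and 1.91-fold in 0 µM heme over FBS (log2 fold change 0.93, SE 0.065, FDR 2.42e-07), while 10 µM over 0 µM heme gave -0.16 (SE 0.063, FDR 0.0529). Of the 13990 genes tested, 26.4% had a higher log2 fold change than USP in 10 µM heme over FBS, and 13% in 0 µM heme over FBS.

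In A20 cells USP had 53.09, 38.17 and 38.42 CPM in 10 µM heme, against 63.30, 68.57 and 70.45 CPM in 0 µM heme and 41.39, 41.15 and 42.65 CPM with FBS. The libraries of 0 µM heme were the highest and overlapped neither other treatment. The log2 fold change was -0.64 for 10 µM over 0 µM heme (SE 0.14, FDR 0.00232) and 0.69 for 0 µM heme over FBS (SE 0.14, FDR 0.00533). Without replicate 1 of 10 µM heme both passed the threshold, at -0.81 (FDR 1.21e-05) and 0.69 (FDR 8.22e-05). The calls over all genes then also rose, from 2318 to 4223 and from 53 to 571. For 10 µM over 0 µM heme, 38% of the 12249 genes tested had a lower log2 fold change than USP. The median over all genes was -0.19, and -0.25 without that library. For 0 µM heme over FBS, 19.1% of genes were higher than USP. Between 10 µM heme and FBS the log2 fold change of USP was 0.05 (SE 0.14, FDR 0.764), and -0.13 (FDR 0.177) without that library. At 48 h USP had 26.80, 25.29 and 26.38 CPM with 20 µM heme, against 30.70, 27.96 and 28.71 CPM with FBS alone. That log2 fold change was -0.16 (SE 0.061, FDR 0.106).

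E75, the nuclear receptor that holds heme in Drosophila, had 143.0, 151.9 and 147.2 CPM in 10 µM heme in Aag2 cells in Schneider's medium, against 105.6, 110.9 and 104.1 CPM in 0 µM heme and 96.38, 109.8 and 103.7 CPM with FBS. The libraries with heme stood above all 6 others, which overlapped among themselves. E75 rose 1.38-fold over 0 µM heme (log2 fold change 0.46, SE 0.05, FDR 1.5e-05) and 1.43-fold over FBS (log2 fold change 0.51, SE 0.05, FDR 8.1e-06). Between 0 µM heme and FBS its log2 fold change was 0.05 (SE 0.05, FDR 0.537). Of the 13171 genes tested, 23.2% had a higher log2 fold change than E75 in 10 µM over 0 µM heme, and 16.8% in 10 µM heme over FBS. The rise over 0 µM heme missed the threshold without replicate 1 or 3 of 0 µM heme or replicate 2 of 10 µM heme, with an FDR of at most 0.000173 and a log2 fold change of at least 0.44.

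In Aag2 cells in L-15 medium E75 had 26.82, 21.96 and 22.12 CPM in 10 µM heme, against 52.85, 54.73 and 52.90 CPM in 0 µM heme and 31.92, 36.79 and 33.56 CPM with FBS. Here the libraries with heme were the lowest and those of 0 µM heme the highest, and no treatments overlapped. E75 fell 2.26-fold in 10 µM heme against 0 µM heme (log2 fold change -1.18, SE 0.083, FDR 5.71e-07), and 2.54% of the 13990 genes tested had a lower log2 fold change. It rose 1.57-fold in 0 µM heme over FBS (log2 fold change 0.65, SE 0.082, FDR 3.47e-05), a call lost without any library of 0 µM heme and without replicate 1 or 3 with FBS, with log2 fold changes of 0.61 to 0.66 and an FDR of at most 0.000293. In 0 µM heme over FBS, 19.6% of the genes tested had a higher log2 fold change than E75. Between 10 µM heme and FBS the log2 fold change of E75 was -0.53 (SE 0.084), with an FDR of 0.000167 that missed the threshold. The exact test in edgeR and DESeq2 both called that difference, at FDRs of 4.79e-07 and 2.57e-08.

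In A20 cells E75 was low, at 2.26, 1.46 and 1.89 CPM in 10 µM heme, against 3.95, 2.05 and 2.31 CPM in 0 µM heme and 2.66, 3.78 and 3.60 CPM with FBS. These are 24 to 114 counts per library, and changes of this gene in A20 cells were measured with little precision. With 10 µM heme its log2 fold change was -0.56 over 0 µM heme (SE 0.32, FDR 0.142) and -0.83 over FBS (SE 0.32, FDR 0.0452), and -0.72 (FDR 0.0935) and -0.99 (FDR 0.0328) without replicate 1 of 10 µM heme. For 0 µM heme over FBS it was -0.27 (SE 0.31, FDR 0.549), and -0.28 (FDR 0.476) without that library. At 48 h E75 had 34.31, 28.27 and 29.72 CPM with 20 µM heme, against 30.70, 31.50 and 26.48 CPM with FBS alone. The groups overlapped, and the log2 fold change was 0.06 (SE 0.093, FDR 0.708).

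HR3, the nuclear receptor of the cascade that E75 represses in Drosophila, had 27.65, 28.40 and 26.50 CPM in 10 µM heme in Aag2 cells in Schneider's medium, against 8.09, 9.47 and 8.51 CPM in 0 µM heme and 11.79, 12.33 and 12.60 CPM with FBS. It rose to 27.5 ± 0.957 CPM in 10 µM heme, against 8.69 ± 0.707 CPM in 0 µM heme (SD, n = 3 each). This was a log2 fold change of 1.66 (SE 0.079, FDR 3.02e-08). Over FBS the rise was 1.17 on the log2 scale (SE 0.077, FDR 3.91e-07), and 6.25% of the 13171 genes tested had a higher log2 fold change. The libraries of 0 µM heme were the lowest, with a log2 fold change over FBS of -0.49 (SE 0.079, FDR 0.00114), past the threshold only by DESeq2 (FDR 6.99e-05).

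In Aag2 cells in L-15 medium HR3 had 19.69, 21.08 and 21.19 CPM in 10 µM heme, against 7.28, 6.06 and 7.36 CPM in 0 µM heme and 11.87, 9.65 and 8.57 CPM with FBS. The order of the treatments was that seen in Schneider's medium, and no treatments overlapped. HR3 rose 2.99-fold over 0 µM heme (log2 fold change 1.58, SE 0.13, FDR 1.97e-06) and 2.06-fold over FBS (log2 fold change 1.04, SE 0.13, FDR 2.27e-05). Its log2 fold change in 0 µM heme over FBS was -0.54 (SE 0.13, FDR 0.00461). In 10 µM heme over FBS, 21.3% of the 13990 genes tested had a higher log2 fold change than HR3. The call over FBS was lost without any library of 10 µM heme and without replicate 2 or 3 with FBS, with log2 fold changes of 0.93 to 1.07 and an FDR of at most 0.000206.

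In A20 cells HR3 had 11.12, 39.45 and 38.15 CPM in 10 µM heme, against 5.72, 8.17 and 8.45 CPM in 0 µM heme and 32.44, 35.80 and 40.10 CPM with FBS. The libraries of 0 µM heme lay below all others, and those of 10 µM heme, other than replicate 1, lay among or next to those with FBS. The log2 fold change of 10 µM over 0 µM heme was 1.99 (SE 0.41, FDR 0.00191), against a median of -0.19 over all genes tested. Without replicate 1 of 10 µM heme it was 2.38, past the threshold (FDR 1.36e-06). Between 0 µM heme and FBS it was -2.28 (SE 0.41, FDR 0.0036), which passed the threshold without that library (-2.28, FDR 1.34e-05), and 0.229% of the 12249 genes tested had a lower log2 fold change. Between 10 µM heme and FBS it was -0.29 (SE 0.39, FDR 0.541), and 0.10 (FDR 0.592) without that library.

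At 48 h HR3 had 10.74, 15.40 and 11.79 CPM with 20 µM heme, against 4.11, 3.95 and 3.41 CPM with FBS alone. Every library with heme was above every library without it, and 0.741% of the genes tested had a higher log2 fold change. That log2 fold change was 1.72 (SE 0.16), 3.3-fold, and its FDR of 0.000208 missed the threshold. The exact test in edgeR and DESeq2 called it, at FDRs of 8.29e-14 and 3.35e-20.

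**Figure D2:**
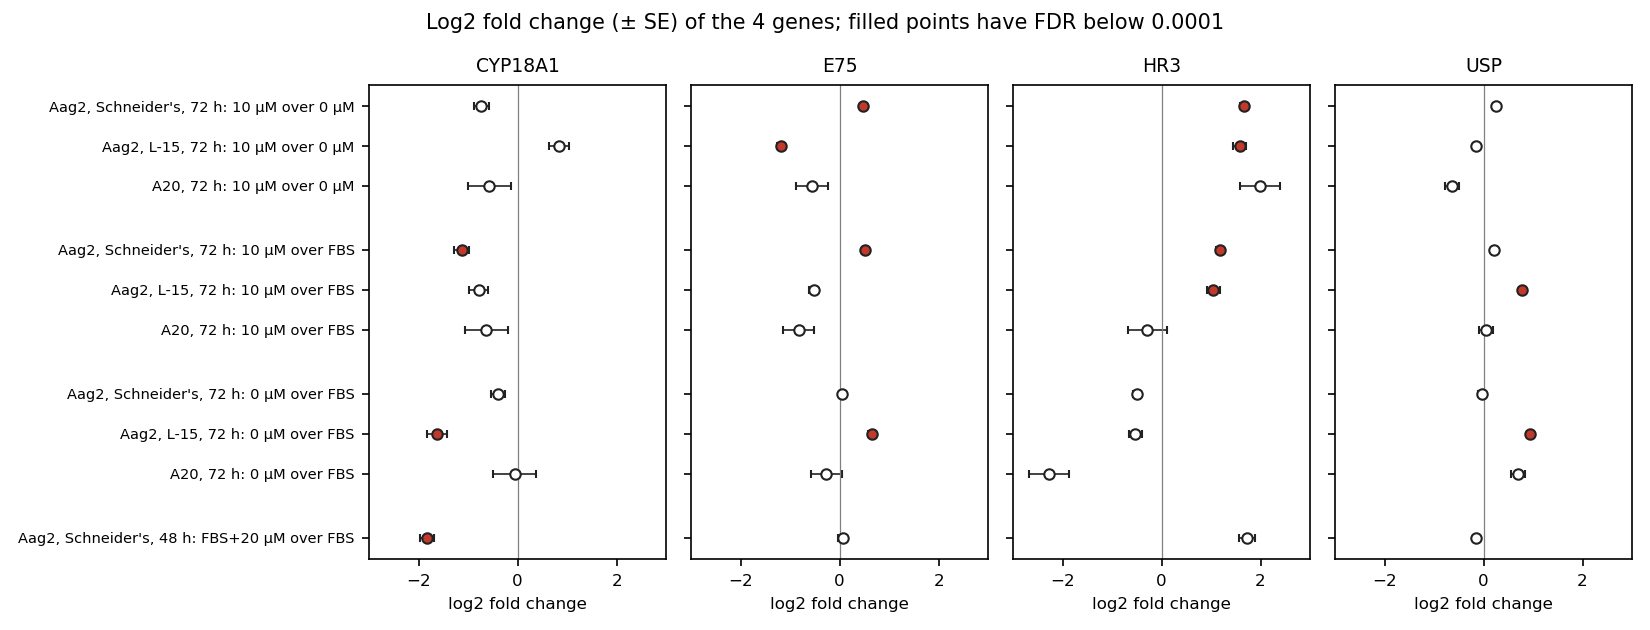
Log2 fold change with its standard error for CYP18A1, E75, HR3 and USP in the 10 comparisons within experiments, each named by its treatments and grouped by the kind of comparison. Filled points have an FDR below 0.0001. HR3 lies near 1.66, 1.58 and 1.99 in the 3 comparisons of 10 µM with 0 µM heme, while E75 lies at 0.46, -1.18 and -0.56.

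The calls of the 4 genes are set here beside those of all genes tested. Between 10 µM and 0 µM heme, 2 of the 4 passed the threshold in Schneider's medium, where 17.1% of all genes did, and 2 of the 4 in L-15 medium, where 18% did. Between 10 µM heme and FBS, 3 of the 4 passed in Schneider's medium beside 13.8% of all genes, and 2 of the 4 in L-15 medium beside 33.7%. Between 0 µM heme and FBS, 3 of the 4 passed in L-15 medium beside 23.9% of all genes. In Schneider's medium 0 of the 4 passed in that comparison beside 2.5% of all genes, 2 had an unadjusted p below 0.05, and the exact test called 0 and DESeq2 called 1. At 48 h, 1 of the 4 passed beside 0.766% of all genes. The median log2 fold change of the 4 genes was 0.36 in Schneider's medium and 0.34 in L-15 medium for 10 µM over 0 µM heme, beside 0.03 and 0.02 over all genes tested. Since the 4 genes were chosen with their changes known, nothing is read from these shares.

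In A20 cells, edgeR's quasi-likelihood test called 0 of the 4 genes in any comparison. This stands beside 18.9% of all genes between 10 µM and 0 µM heme, 10.8% between 10 µM heme and FBS and 0.433% between 0 µM heme and FBS. At an unadjusted p below 0.05 there were 2, 1 and 2 of the 4 genes in these comparisons. The exact test called 1, 0 and 1 of them, and DESeq2 called 1, 0 and 1, in each case HR3. The libraries of 10 µM heme in A20 cells also had TMM factors of 0.685 to 0.834, against 1.1 to 1.22 in the other A20 libraries, and their 10 most abundant genes took 14.1% to 17.6% of the counts, against 10% to 11.5%. The part of this in the levels of the 4 genes was not tested.

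Whether the response to heme differed between media was tested by an interaction contrast over the 18 libraries of both Aag2 experiments at 72 h, fitted together. The response of E75 to 10 µM over 0 µM heme was lower in L-15 than in Schneider's medium (log2 difference -1.65, SE 0.098, FDR 8.55e-10). The response of HR3 differed by -0.09 (SE 0.15, FDR 0.672), which does not show that the responses were equal. The difference was 1.56 for CYP18A1 (SE 0.27, FDR 0.000181) and -0.43 for USP (SE 0.086, FDR 0.000825), neither past the threshold. The difference of CYP18A1 passed it without replicate 1 with FBS in L-15 medium (1.57, FDR 2.72e-05) or without replicate 1 of 10 µM heme in Schneider's medium (1.79, FDR 4.97e-05). In this test 1 of the 4 genes was called, beside 9.87% of all genes.

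The response to the removal of serum, 0 µM heme over FBS, was compared between the media in the same fit, where 2 of the 4 genes were called beside 22.1% of all genes. USP responded by 1.0 more on the log2 scale in L-15 than in Schneider's medium (SE 0.087, FDR 2.46e-08), and E75 by 0.63 more (SE 0.097, FDR 3.11e-05). The difference was -1.20 for CYP18A1 (SE 0.26, FDR 0.000928) and -0.02 for HR3 (SE 0.15, FDR 0.946). The call of E75 was lost without 7 of the 18 libraries in turn, with differences of 0.57 to 0.62 and an FDR of at most 0.000134. The media were run as separate experiments, so that medium and experiment cannot be told apart.

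Between A20 cells and Aag2 cells in L-15 medium, edgeR's quasi-likelihood test of the difference in response to 10 µM over 0 µM heme called 0 of the 4 genes, beside 26.5% of all genes. At an unadjusted p below 0.05 there were 3, and no other tool was run on this difference. It was -1.26 for CYP18A1 (SE 0.54, FDR 0.0528), 0.77 for E75 (SE 0.3, FDR 0.0347), 0.55 for HR3 (SE 0.44, FDR 0.297) and -0.34 for USP (SE 0.15, FDR 0.0634). Without replicate 1 of 10 µM heme in A20 cells these were -1.83 (FDR 0.00235), 0.64 (FDR 0.0943), 0.98 (FDR 0.000656) and -0.48 (FDR 0.000377). The median of all genes was -0.29, and the serum-free medium of the A20 cells was SF900 II, so that line and medium cannot be told apart.

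The levels of each gene were also ordered over the 11 treatments, after scaling all 33 libraries together. The joint scaling put A20 levels higher and L-15 levels lower than the scaling within experiments: CYP18A1 with FBS averaged 57.8 CPM in A20 cells and 9.15 CPM in L-15 medium, against 45.6 and 11.1 CPM within experiments. The order is a description with no test. CYP18A1 was highest in A20 cells, at 57.8 ± 26.1 CPM with FBS, 54.8 ± 10.1 CPM in 0 µM heme and 39.5 ± 23.1 CPM in 10 µM heme (SD, n = 3), which overlapped each other. Without replicate 1 of 10 µM heme, that treatment held 27.24 and 25.06 CPM and lay below the other A20 treatments. No library of Aag2 cells reached the lowest of these, 25.06 CPM, and the next level was 15.6 ± 0.614 CPM with FBS in Schneider's medium at 72 h. It was lowest with 20 µM heme at 48 h, at 1.44 ± 0.144 CPM.

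E75 had the opposite order of cell lines. It was highest in Aag2 cells in Schneider's medium at 72 h, at 139.6 ± 3.95 CPM in 10 µM heme, 104.3 ± 3.58 CPM in 0 µM heme and 99.5 ± 7.21 CPM with FBS, of which the last 2 overlapped. The next level was 45.7 ± 0.8 CPM in 0 µM heme in L-15 medium. It was lowest in A20 cells, from 4.24 ± 0.772 CPM with FBS to 2.52 ± 0.548 CPM in 10 µM heme, with neighbours that overlapped. Without replicate 1 of 10 µM heme, that treatment held 1.96 and 2.54 CPM, below all other A20 libraries. E75 with FBS alone in Schneider's medium was 99.5 CPM at 72 h and 28.1 ± 2.72 CPM at 48 h, in libraries of different kits.

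HR3 was highest in A20 cells in 10 µM heme and with FBS, at 39.8 ± 21.4 CPM and 45.8 ± 4.75 CPM, which overlapped. Without replicate 1 of 10 µM heme this order was reversed, with 52.94 and 51.29 CPM in 10 µM heme, against 41.09, 45.63 and 50.58 CPM with FBS. In 0 µM heme in A20 cells HR3 held only rank 7 of the 11 treatments, at 9.34 ± 1.88 CPM. The gene was lowest in Aag2 cells with FBS at 48 h, at 3.63 ± 0.379 CPM. In the Aag2 cells the 3 treatments with added heme held the highest 3 levels, 26.1 ± 0.855 CPM in Schneider's medium, 17.1 ± 0.725 CPM in L-15 medium and 11.9 ± 2.29 CPM at 48 h, of which the last overlapped with FBS in Schneider's medium at 72 h (11.8 ± 0.496 CPM). USP varied least. It ran from 84.6 ± 4.66 CPM in 0 µM heme in A20 cells to 24.0 ± 1.56 CPM with FBS in L-15 medium, and on this scale all 3 treatments of A20 cells were above all Aag2 treatments. Scaled within experiments they were not, since USP then averaged 43.2 CPM in 10 µM heme and 41.7 CPM with FBS in A20 cells, and 49.8 and 55.4 CPM in 10 µM and 0 µM heme in L-15 medium. Without replicate 1, 10 µM heme in A20 cells held 51.23 and 51.65 CPM of USP on the joint scale, below the 52.44 to 53.79 CPM with FBS.

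Other genes of the pathway were sought by 27 name patterns, such as the ecdysone receptor, Broad and the enzymes of hormone synthesis, among the 1547 identifiers for which a name was at hand, and 3 genes matched. They are HR4 (AAEL005850), a nuclear receptor of the same cascade, CYP307A1 (AAEL009762), which is a P450 of hormone synthesis, and AAEL002130, annotated as a putative ecdysone inducible protein L2. All 3 passed the threshold in at least 1 comparison. Single comparisons within experiments called 0.433% to 33.7% of all genes tested. The share of all genes that passed in at least 1 comparison was not computed, and nothing is read from this count.

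HR4 had 17.33, 19.13 and 16.57 CPM in 10 µM heme in Schneider's medium, against 41.90, 49.88 and 47.61 CPM in 0 µM heme. It fell by 1.39 on the log2 scale (SE 0.073, FDR 6.02e-08). In L-15 medium it had 9.21, 8.45 and 9.30 CPM in 10 µM heme, against 5.04, 4.31 and 5.29 CPM in 0 µM heme, a log2 fold change of 0.88 that missed the threshold (SE 0.22, FDR 0.00527). The difference between the media was 2.26 (SE 0.25, FDR 1.31e-06), and HR4, like CYP18A1, was lowest with heme in Schneider's medium and lowest in 0 µM heme in L-15 medium.

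CYP307A1 fell in 10 µM heme against 0 µM heme in both media. It had 36.98, 36.39 and 29.87 CPM in 10 µM heme in Schneider's medium, against 90.43, 89.01 and 87.34 CPM in 0 µM heme (log2 fold change -1.37, SE 0.067, FDR 3.86e-08). In L-15 medium it had 63.42, 54.51 and 51.07 CPM in 10 µM heme, against 134.2, 144.7 and 136.9 CPM in 0 µM heme (log2 fold change -1.30, SE 0.095, FDR 7.91e-07). Its level with FBS in L-15 medium was 20.20, 15.08 and 17.86 CPM, so that it rose 7.84-fold in 0 µM heme over FBS (log2 fold change 2.97, SE 0.11, FDR 1.31e-09) and 3.19-fold in 10 µM heme over FBS (log2 fold change 1.67, SE 0.1, FDR 5.91e-08). In Schneider's medium it fell in 10 µM heme against FBS (log2 fold change -1.37, SE 0.067, FDR 4.43e-08). AAEL002130 fell in 10 µM heme against 0 µM heme by 0.62 in Schneider's medium (SE 0.054, FDR 3.18e-06) and by 0.76 in L-15 medium (SE 0.094, FDR 4.28e-05), both on the log2 scale. Over FBS, it rose in L-15 medium 2.41-fold in 10 µM heme (FDR 2.97e-07) and 4.06-fold in 0 µM heme (FDR 1.19e-08), and it fell 2.14-fold in 10 µM heme in Schneider's medium (FDR 5.03e-08). HR4 fell against FBS in 10 µM heme 3.23-fold in Schneider's medium (FDR 1.76e-08) and 2.89-fold in L-15 medium (FDR 5.78e-05), and 5.32-fold in 0 µM heme in L-15 medium (FDR 2.58e-06).

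In A20 cells and at 48 h these 3 genes missed the threshold. Of all genes tested, 0.433% to 18.9% passed it in the comparisons of A20 cells and 0.766% at 48 h. In A20 cells the log2 fold changes of 10 µM over 0 µM heme were -0.47 for HR4 (FDR 0.136), 0.88 for CYP307A1 (FDR 0.0153) and 0.23 for AAEL002130 (FDR 0.126). The largest of their changes in A20 cells was that of CYP307A1 in 0 µM heme over FBS, at -1.76 (SE 0.27, FDR 0.0018). With 20 µM heme at 48 h the log2 fold changes were -0.54 for HR4 (FDR 0.0709), -0.62 for CYP307A1 (FDR 0.0186) and 0.24 for AAEL002130 (FDR 0.00626).

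**Figure D3:**
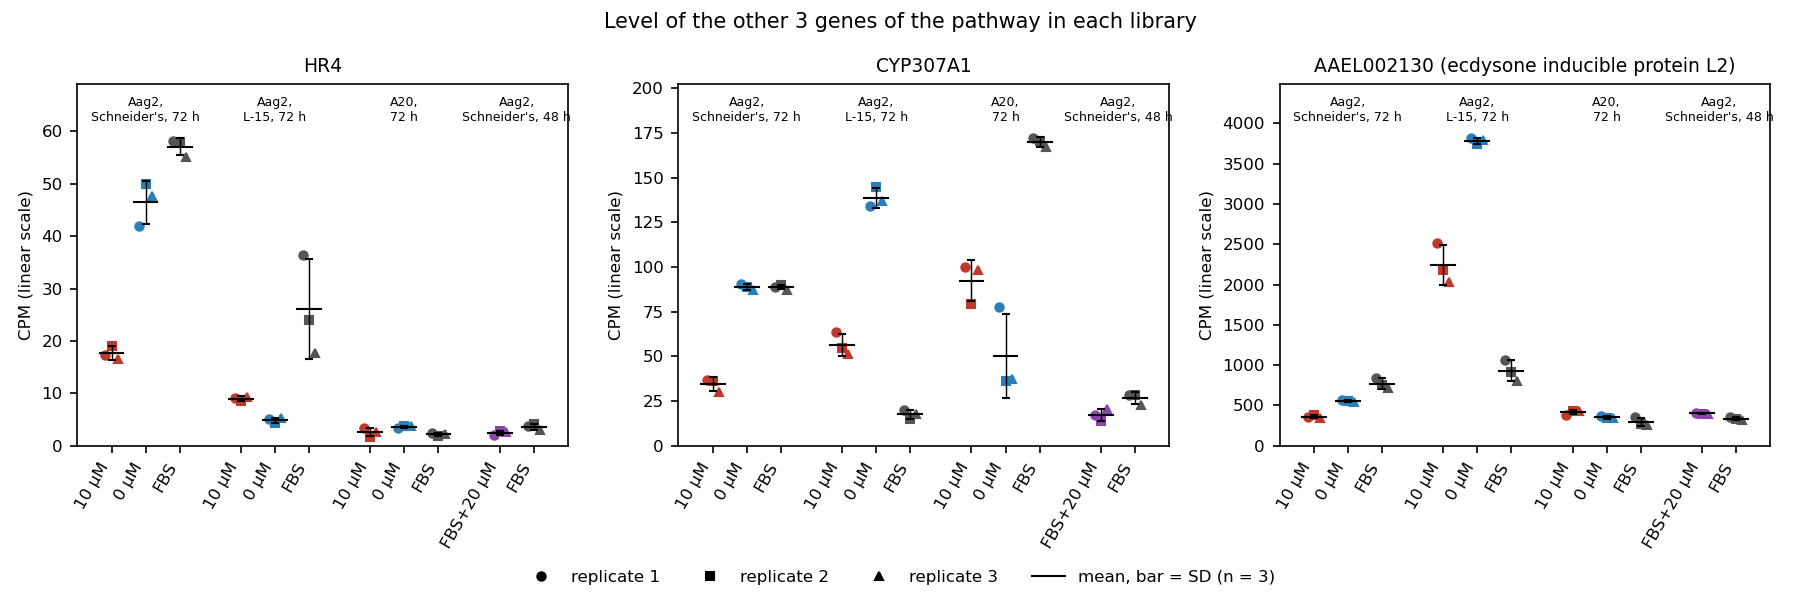
Level of HR4, CYP307A1 and AAEL002130 in each of the 33 libraries, in CPM on linear axes that start at 0, with the mean and the SD of 3 replicates. Among the treatments in Schneider's medium at 72 h all 3 are lowest in 10 µM heme, and in L-15 medium CYP307A1 and AAEL002130 are highest in 0 µM heme.

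The 4 genes did not share one pattern over the libraries. Correlations of their log2 CPM, centred on the mean of each experiment, were computed over the 33 libraries and within experiments. They are given as a description, since the libraries share treatments and experiments. Over all libraries Pearson's r between pairs of the 4 genes was -0.43 to 0.21. E75 and HR3 had an r of 0.91 over the 9 libraries in Schneider's medium at 72 h and -0.95 over the 9 in L-15 medium. For this pair it was -0.125 in A20 cells and 0.186 at 48 h. CYP18A1 and HR3 had an r of -0.75 in Schneider's medium, 0.37 in L-15 medium, -0.42 in A20 cells and -0.99 over the 6 libraries at 48 h.

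The genes most like each of the 4 were sought in the same way among 7264 genes with a mean of at least 10 CPM. USP had the closest companions, AAEL001446 (r = 0.95), AAEL014344 (0.93) and AAEL008262 (0.92), although their r at 48 h was 0.11, -0.86 and -0.62. In Schneider's medium at 72 h their r was 0.73, 0.24 and 0.64. For E75 they were AAEL005580 (0.86), AAEL020528 (0.81) and AAEL019753 (0.79), whose r within experiments had lower ends of 0.75, 0.50 and -0.12, all at 48 h. For HR3 they were AAEL010951 (0.83), AAEL013741 (0.82) and AAEL009227 (0.81), and their r within experiments was 0.807 to 0.991, 0.333 to 0.975 and 0.687 to 0.996. For CYP18A1 they were AAEL010200 (0.80), AAEL003684, annotated as a ku P80 DNA helicase (0.80), and AAEL007787, annotated as 5-aminolevulinic acid synthase (0.78), which makes the first precursor of heme. AAEL007787 followed CYP18A1 with an r of 0.91 in Schneider's medium and in L-15 medium, 0.98 at 48 h and 0.43 in A20 cells.

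**Figure D4:**
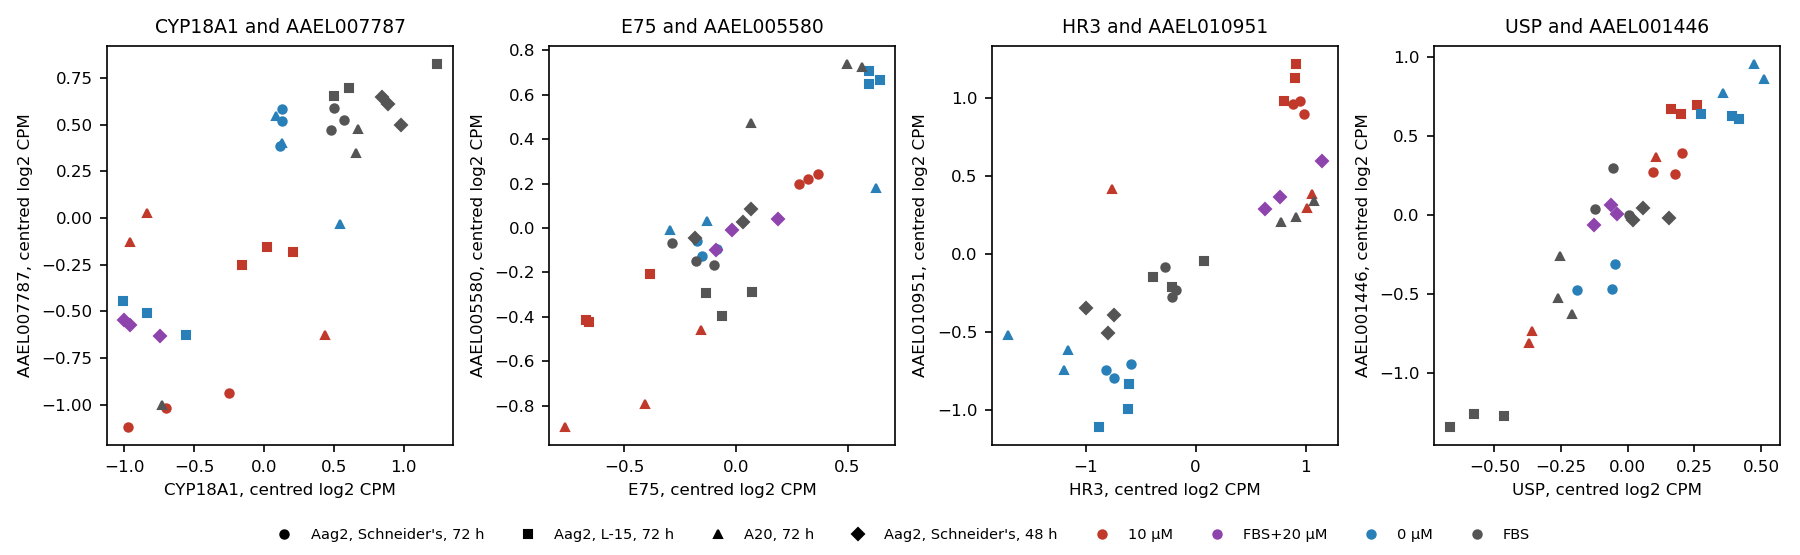
Each of the 4 genes (x axis) against one of its 3 most similar genes (y axis), in log2 CPM centred on the mean of each experiment. Points are the 33 libraries, with shapes for experiments and colours for treatments, and the gene shown is the most similar one, except for CYP18A1, where it is the named gene AAEL007787. USP and AAEL001446 have an r of 0.95 over all libraries. Within experiments it is 0.974 in L-15 medium, 0.981 in A20 cells, 0.731 in Schneider's medium at 72 h and 0.107 at 48 h.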

How the data were processed

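RNA of 33 libraries (11 treatments, 3 biological replicates each) was analysed. The authors aligned paired-end reads to AaegL5 with HISAT2 2.1.0, filtered them with SAMtools and counted them per gene with bedtools 2.19.1. The deposited values are raw read counts without normalization, and the use of strand is not given in the sources used here, so that overlapping genes on opposite strands cannot be told apart. The labels name a TruSeq small RNA kit at 48 h and NEBNext Ultra otherwise. The study's methods instead name TruSeq RNA v2 or NEBNext Ultra RNA kits, without saying which experiment used which. Pairs of replicates differed beyond sampling noise (chi-square per degree of freedom of at least 7.01). In A20 cells this value was 36.5 and 40.8 (FBS), 37.4 and 44.2 (0 µM heme) and 160 and 117 (10 µM heme) for pairs with replicate 1. Between replicates 2 and 3 it was 11.1, 11 and 23.2.

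Each experiment was fitted separately over all genes in R 4.3.3 with edgeR 4.0.16 and limma 3.58.1 (filterByExpr, TMM, quasi-likelihood F test, Benjamini-Hochberg adjustment), without a pairing of replicate numbers. Genes tested numbered 13171, 13990, 12249 and 12007. A log2 fold change is positive where the group named first is higher, and its SE was obtained by dividing its absolute value by √F. Differences between experiments were contrasts in joint fits. For likeness and correlations, log2 CPM had a prior count of 2. Alternatives were the exact test, which the study names, DESeq2 1.42.0, no filter, RLE size factors, library sizes without further scaling, a replicate block, and each library left out. Steps were tested on simulated data. Figures were drawn with matplotlib 3.10.9.

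The genes and lists were chosen with earlier results of these data known. Genes named were the 4 genes, pathway genes found by name that passed the threshold in a comparison, and the 3 most similar genes of each of the 4. Names came from a shortened table of the study. Protein and promoter sequences were not analysed here.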

Additional observations from a re-analysis of the deposited data

Results flagged for a closer look

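The 3 differences between the media given here passed the threshold in edgeR's interaction test over the 18 libraries of Aag2 cells at 72 h, which is what singled them out. The log2 response of E75 to 10 µM over 0 µM heme was -1.65 in L-15 relative to Schneider's medium (SE 0.098, FDR 8.55e-10), with a rise in one medium and a fall in the other. For 0 µM heme over FBS, the log2 difference between the media was 0.63 for E75 (SE 0.097, FDR 3.11e-05) and 1.0 for USP (SE 0.087, FDR 2.46e-08). Medium and experiment cannot be told apart in these values.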

How the results depend on the processing

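No called value of the 4 genes changed direction under any alternative run, and RLE size factors changed no call and no count by over 1.5 times. Library size alone shifted the median log2 fold change of all genes to -0.88 for 10 µM over 0 µM heme in A20 cells and to 0.45 for 10 µM heme over FBS in L-15 medium, and turned the calls in A20 cells for 10 µM over 0 µM heme to 420 higher and 2124 lower, beside 1199 and 1119. The cause of the changes below was not tested.

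The number of genes past the threshold moved in several comparisons. For 0 µM heme over FBS in Schneider's medium it was 329, and 744 by the exact test, 1194 by DESeq2 and 163 with the replicate block. DESeq2 called 3076 genes there for 10 µM heme over FBS, against 1818, and 3642 over 0 µM heme, against 2250. In L-15 medium the exact test called 4269 and DESeq2 4656 for 10 µM over 0 µM heme, against 2518. In A20 cells, 0 µM heme over FBS gave 53, and 1128 by the exact test, 1529 by DESeq2, 21 with library size alone, 157 without the filter and 13 with the block. There 10 µM heme over FBS gave 1329, and 3930, 4261 and, with the block, 36, and over 0 µM heme it gave 2318, and 5041, 5320 and, with the block, 541. At 48 h the number was 92, and 655 by the exact test, 1014 by DESeq2, 271 without the filter and 21 with the block.

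Of the 4 genes, calls were gained by DESeq2 for HR3 in 0 µM heme over FBS (-0.49) and CYP18A1 in 10 µM over 0 µM heme (-0.75) in Schneider's medium. Calls were gained by the exact test, DESeq2 and, where 3 values are given, without the filter for E75 in 10 µM heme over FBS in L-15 medium (-0.53, -0.54, -0.55), HR3 in A20 cells in 0 µM heme over FBS (-2.28, -2.33) and 10 µM over 0 µM heme (1.99, 2.06), and HR3 at 48 h (1.72, 1.71, 1.72). Library size alone gained the difference of USP between A20 and Aag2 cells (-1.31). With that setting the median of this difference over all genes was -1.25, with 729 genes called higher and 4166 lower. Library size alone lost CYP18A1 in 10 µM heme over FBS in Schneider's medium (-1.02) and in 0 µM heme over FBS in L-15 medium (-1.38). With the replicate block the calls lost were those of CYP18A1 in these comparisons (-1.15, -1.60) and at 48 h (-1.85), of E75 in 0 µM heme over FBS in L-15 medium (0.65) and of E75 in its difference between the media (0.63). Deviations of same-numbered libraries correlated at -0.04 to 0.13. In A20 cells they correlated at -0.02 to 0.125 for same-numbered libraries and at -0.11 to 0.08 for other-numbered ones. Whether replicate numbers pair the libraries was not tested. The block changed no other call of the 4 genes.

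Leaving out each library in turn gave the following ranges. For 0 µM heme over FBS in Schneider's medium, 121 to 322 genes passed. There 10 µM heme over FBS gave 1198 to 1575 genes and -1.36 to -0.98 for CYP18A1, and over 0 µM heme it gave -0.97 to -0.59 for CYP18A1 and 0.44 to 0.48 for E75. In L-15 medium, 0 µM heme over FBS gave -1.77 to -1.36 for CYP18A1 and 0.61 to 0.71 for E75, 10 µM heme over FBS gave -0.63 to -0.48 for E75 and 0.93 to 1.17 for HR3, and 10 µM over 0 µM heme gave 1492 to 2926 genes. In A20 cells, 0 µM heme over FBS gave 0 to 571 genes, -2.38 to -2.13 for HR3 and 0.66 to 0.73 for USP. There 10 µM heme over FBS gave 63 to 3277 genes, and over 0 µM heme 411 to 4223 genes, 1.72 to 2.38 for HR3 and -0.81 to -0.56 for USP, where the highest counts were those without replicate 1 of 10 µM heme. At 48 h it gave 20 to 70 genes and -1.93 to -1.79 for CYP18A1. Between the media it gave 1.41 to 1.79 for the heme response of CYP18A1 and 0.57 to 0.68 for the serum response of E75.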
